A study of Mus musculus with 6 samples.

Results

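The digestive enzymes examined here were the brush-border disaccharidases and the alkaline phosphatases of mouse small intestinal organoids. The rows of the deposited expression table whose symbol was Sis, Lct, Mgam, Treh, Alpi, Akp3 or Alpl were taken, which gave 7 genes (4 disaccharidases and 3 alkaline phosphatases) of 21397 in the table. All 7 were present, and 6 of them passed the filter on low values, a mean FPKM of at least 1 over the 6 libraries. Alpl, with a mean FPKM of 0.0124, did not pass and is described by its fragments. FPKM is the number of sequenced fragments on a gene divided by the length of the gene and by the total of the library. FPKM values can thus be compared between genes only as far as the lengths used for them hold.

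The organoids were grown from the small intestine of Fpr2f/f mice (from the ileum, according to the text of the paper outside its methods), which carry floxed alleles of the receptor gene and, as far as the sources used here say, no Cre. One group received MMK-1, a peptide agonist of formyl peptide receptor 2, for 5 days, and the control group received 0.1% DMSO. Each group had 3 RNA-seq libraries, and each library combined organoids from 3 mice. The MMK-1 concentration is 1 µM in the protocol text and 1 mM in the sample field for the treatment, and the lower value is also that of the paper. Organoids of this kind hold epithelial cells without the villus architecture, lumen contents or stroma of the intestine. The labels do not say whether the libraries of a group were separate cultures, and the methods of the study speak of independent experiments in general, without naming these libraries. The p-values measure the spread between the libraries, which may be technical.

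The disaccharidases are glycosidases held on the microvilli of absorptive enterocytes, where they split dietary sugars into the monosaccharides that transporters take up. The intestinal alkaline phosphatases are attached to the same membrane by a glycolipid anchor and remove phosphate groups from luminal substrates, bacterial lipopolysaccharide among them. Both classes are classical markers of the mature enterocyte and are low in the crypt.

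The library totals were 35512739 to 37537463 fragments, of which 99.65% to 99.67% fell on listed genes. Within a group the libraries differed by more than counting error, with a chi-square per degree of freedom of 2.88 to 5.21 between control libraries and 3.68 between MMK-1 replicates 1 and 2. MMK-1 replicate 3 stood apart from the other two of its group, at 39.6 and 33.9. In the comparison of MMK-1 with control over 10551 genes (limma on log2(FPKM + 1), Benjamini-Hochberg adjusted p of at most 0.05), 24.7% of genes were lower and 48.5% were higher. The median log2 fold change of all tested genes was 0.13. After the libraries were rescaled to a common upper quartile, the median was -0.0045 and the counts were 3906 genes lower and 3659 higher, against 2606 lower and 5118 higher as deposited. The cells in the libraries had epithelial markers at high levels, and the 7 markers of fibroblasts, muscle and endothelium summed to 0.176 to 0.334 FPKM in the control libraries and 0.189 to 0.383 with MMK-1.

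Of the 6 tested members, 5 fell with MMK-1 (Sis, Lct, Mgam, Treh and Alpi) and 1 rose (Akp3). Among all tested genes 24.7% were called lower and 48.5% higher, and the 6 members had a median log2 fold change of -0.90, against 0.13 for all genes. At a fold change of at least 2 with p of at most 0.05, Lct and Treh were lower and Akp3 was higher, where 3.65% of all genes were lower and 3.39% were higher. In all 6 members the 3 MMK-1 libraries lay wholly to one side of the 3 control libraries. Groups did not overlap in 26.3% of all tested genes in the lower direction and in 50.5% in the higher direction. The exact two-sided permutation test over the libraries gave p = 0.1 for each of the 6, the smallest value that 3 against 3 allows. In bulk RNA, fewer cells of a type and less RNA per cell cannot be told apart, and this holds for every level given here.

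**Figure D1:**
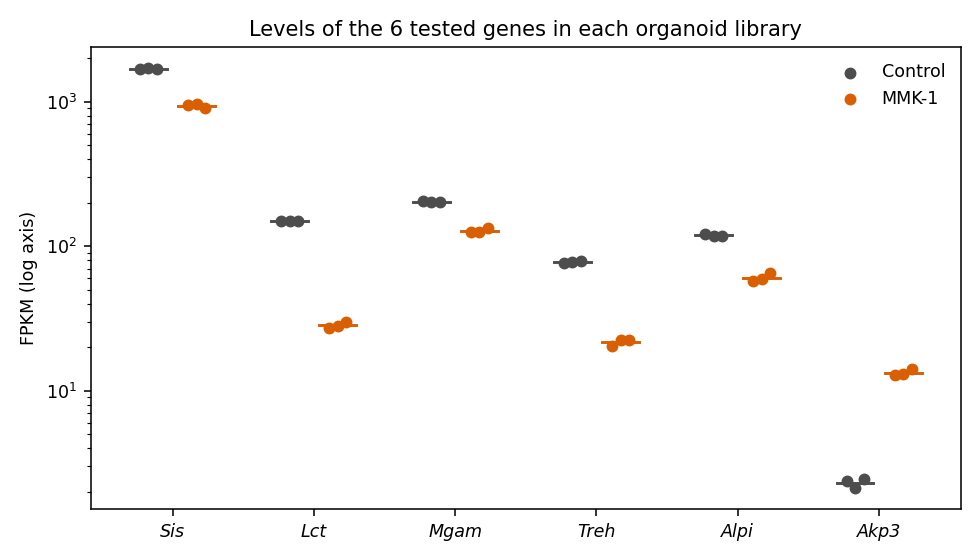
FPKM of the 6 tested members on a log axis, with 1 point per library (3 control in grey, 3 MMK-1 in orange) and a bar at the group mean. Sis, Lct, Mgam, Treh and Alpi lie lower with MMK-1 and Akp3 lies higher, with no overlap between the groups. Alpl is not drawn because 2 of its control libraries were at 0.

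Sis encodes sucrase-isomaltase, which splits sucrose and the branch points and short ends of starch. The gene lies at chr3:72888557-72967863 on the minus strand (RefSeq, GRCm38.p6), and its transcript Sis-202 has 48 exons. It was the most abundant member in both groups. The control libraries held 1683, 1700 and 1685 FPKM, and the MMK-1 libraries held 946, 962 and 910 FPKM. The lowest control library was far above the highest MMK-1 library. The mean went from 1689 ± 9.18 FPKM (SD, n = 3) to 939 ± 26.7 FPKM (SD, n = 3), which is 55.6% of control. Sis fell by 0.85 on the log2(FPKM + 1) scale (SE 0.0377, adjusted p = 2.1e-07, limma). Sis alone took 1.00% to 1.01% of all fragments in the control libraries and 0.542% to 0.573% in the MMK-1 libraries.

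Lct encodes lactase, the enzyme that splits milk sugar and that is high in the suckling intestine. It lies at chr1:128284756-128328318 on the minus strand and its transcript Lct-201 has 17 exons. The control libraries held 150.4, 150.3 and 150.0 FPKM, and the MMK-1 libraries held 27.1, 27.9 and 29.9 FPKM. The controls were nearly identical, with a coefficient of variation of 0.129%, and the MMK-1 libraries were all far lower. The MMK-1 mean of 28.3 ± 1.45 FPKM (SD, n = 3) was 18.8% of the control mean of 150.2 ± 0.195 FPKM (SD, n = 3). Lct fell by 2.37 on the log2(FPKM + 1) scale (SE 0.0445, adjusted p = 2.3e-09, limma), the largest fall among the members, and 30 of the 10551 genes tested fell more on that scale.

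Mgam encodes maltase-glucoamylase, which releases glucose from the ends of starch chains, and is the relative of Sis in the same glycoside hydrolase family. It lies at chr6:40628831-40769123 on the plus strand. The control libraries held 205.4, 201.8 and 201.1 FPKM, and the MMK-1 libraries held 125.2, 126.0 and 133.2 FPKM. All MMK-1 libraries were below all controls, and the change was the smallest of the 6. The mean went from 203 ± 2.28 to 128 ± 4.43 FPKM (SD, n = 3 each), 63.2% of control, and Mgam fell by 0.66 on the log2(FPKM + 1) scale (SE 0.0393, adjusted p = 1.1e-06, limma).

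Treh encodes trehalase, which splits trehalose, a sugar of fungi and insects, and which is anchored in the membrane by a glycolipid like the alkaline phosphatases. It lies at chr9:44673233-44686305 on the plus strand and its transcript Treh-201 has 15 exons. The control libraries held 76.6, 78.0 and 78.9 FPKM, and the MMK-1 libraries held 20.5, 22.5 and 22.6 FPKM. The groups were far apart in relation to their spread. The mean went from 77.8 ± 1.17 to 21.9 ± 1.19 FPKM (SD, n = 3 each), 28.1% of control, and Treh fell by 1.79 on the log2(FPKM + 1) scale (SE 0.0473, adjusted p = 1.2e-08, limma).

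The 4 disaccharidases together summed to 2120 ± 8.50 FPKM in the control libraries and 1117 ± 21.4 FPKM with MMK-1 (SD, n = 3 each), 52.7% of control. Because the members fell by different amounts, the composition of that sum differed between the groups. Sis made up 79.7% of it in the controls and 84.0% with MMK-1, Mgam 9.56% and 11.5%, Lct 7.09% and 2.54%, and Treh 3.67% and 1.96%. The ratio of Sis to Lct within a library was 11.2, 11.3 and 11.2 in the controls and 34.9, 34.5 and 30.4 with MMK-1. On the log2 scale this ratio was 1.56 higher with MMK-1, with no overlap between the groups (exact permutation test, p = 0.1, and 0.1 after adjustment over the 3 ratios computed; 0.1 is the smallest p possible). The ratio of Sis to Mgam was 8.20, 8.42 and 8.38 in the controls and 7.56, 7.63 and 6.83 with MMK-1, a log2 difference of -0.19 with the same p of 0.1 in the exact permutation test. Both ratios were lowest, among the MMK-1 libraries, in replicate 3, which had the lowest Sis and the highest Lct and Mgam of its group.

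**Figure D2:**
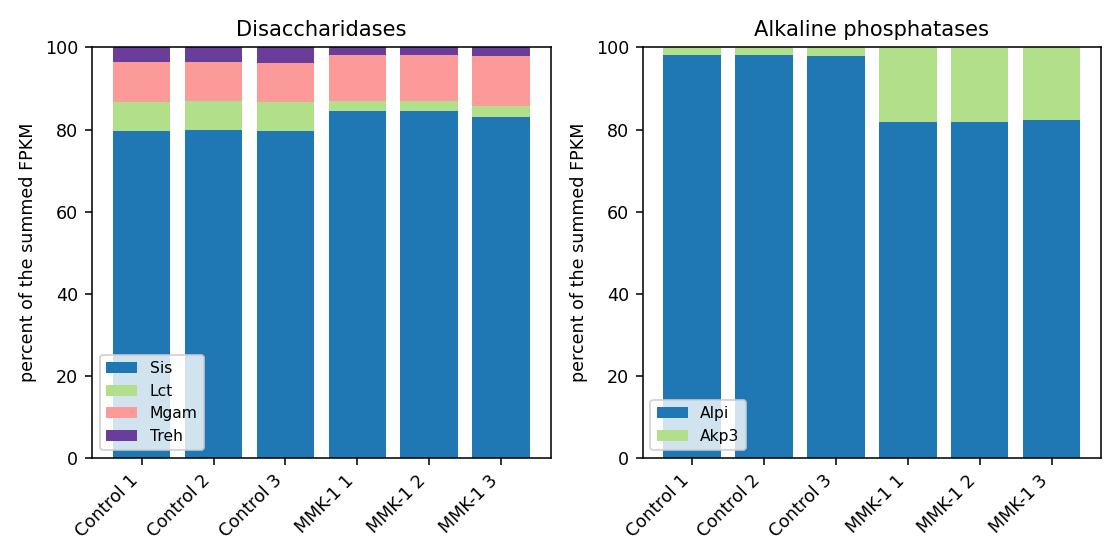
Percent of the summed FPKM of the disaccharidases (left) and of the alkaline phosphatases (right) that each gene contributed, with 1 stacked bar per library and axes from 0 to 100. Lct and Treh take smaller shares with MMK-1, and Akp3 goes from 1.91% to 18.0% of the alkaline phosphatase sum on average. Alpl, at 0.0517% or less in each library, is not drawn.

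The upstream sequences of Sis, Lct and Treh are shown because these genes fell together while their proximal promoters differ in the few words searched here for factors of the enterocyte. Each is the 250 bases before the RefSeq start site on GRCm38.p6, written 5′ to 3′ on the strand of the gene, with capitals for matches in either orientation. Their share of G and C also differed, at 31.6% for Sis, 42.8% for Lct and 53.2% for Treh.
Sis, chr3:72967864-72968113, minus strand: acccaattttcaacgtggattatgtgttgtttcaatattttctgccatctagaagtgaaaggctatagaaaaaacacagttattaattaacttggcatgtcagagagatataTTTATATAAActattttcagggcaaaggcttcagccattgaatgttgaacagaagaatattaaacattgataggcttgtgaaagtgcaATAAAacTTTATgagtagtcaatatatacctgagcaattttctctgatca
Lct, chr1:128328319-128328568, minus strand: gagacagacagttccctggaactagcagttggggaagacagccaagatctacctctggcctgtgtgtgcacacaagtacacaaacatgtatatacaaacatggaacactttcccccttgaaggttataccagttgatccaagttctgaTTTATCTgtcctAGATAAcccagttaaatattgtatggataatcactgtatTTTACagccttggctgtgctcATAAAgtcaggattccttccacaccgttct
Treh, chr9:44672983-44673232, plus strand: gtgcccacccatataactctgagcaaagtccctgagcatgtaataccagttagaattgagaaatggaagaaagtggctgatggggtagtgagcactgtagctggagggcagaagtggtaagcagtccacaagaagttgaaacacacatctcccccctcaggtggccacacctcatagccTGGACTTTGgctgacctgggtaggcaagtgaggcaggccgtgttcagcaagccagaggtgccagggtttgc
The words searched, on both strands, were TTTAT and TTTAC for the CDX factors, AGATAA and TGATAA for GATA factors, CAAAGTCCA for HNF4, GGGTGTG and GGGCGTG for KLF factors, and TATAAA for the TATA box, whose reverse complement can share bases with TTTAT. The Sis sequence held 4 CDX matches and 2 TATA box matches that overlap CDX matches. Lct held 3 CDX and 2 GATA matches, and 1 of each overlapped. Treh held no match but 1 for HNF4, in reverse orientation, beginning 71 bases before the start. Mgam, not printed, held 2 CDX matches, 2 GATA matches and 1 TATA box match that overlaps a CDX match. Among 32851 RefSeq promoter windows of the same length, 51.2% held a CDX match, 16.6% a GATA match, 0.384% the HNF4 word, 13.8% a KLF match and 12.4% a TATA box match, so a CDX match by itself is common. These matches describe letters and not bound sites, and no binding was measured.

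**Figure D3:**
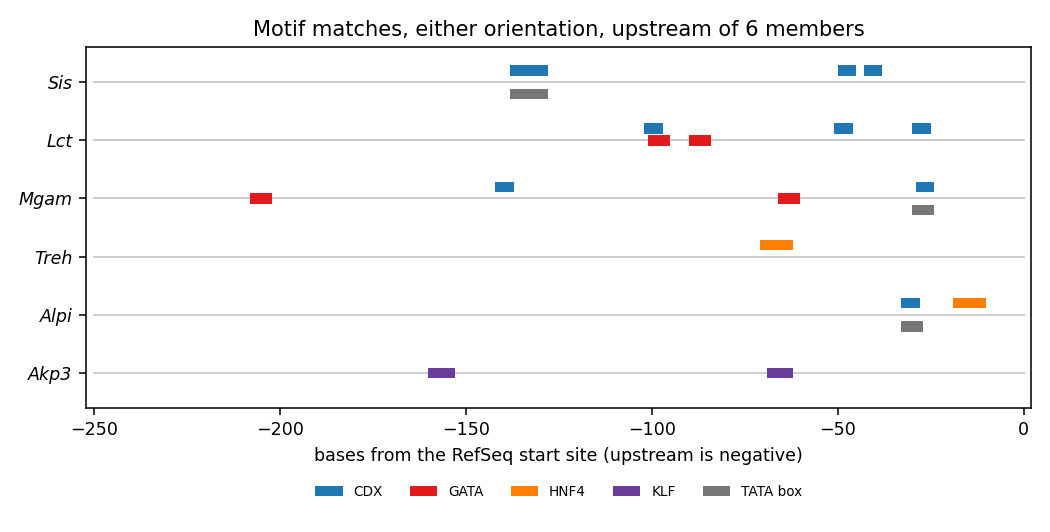
Positions of the motif matches in the 250 bases before the RefSeq start site of 6 members, with distance from the start on the horizontal axis in bases. Sis, Lct and Mgam carry several CDX matches, Treh carries only an HNF4 match, Alpi has an HNF4, a CDX and a TATA box match close to its start, and Akp3 has 2 KLF matches. Overlapping CDX, GATA and TATA box matches are drawn at different heights.

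Alpi encodes the intestinal alkaline phosphatase that was the most abundant of its class in these libraries. It lies at chr1:87098002-87101606 on the minus strand, and its transcript Alpi-201 has 11 exons. The control libraries held 121.7, 117.3 and 117.2 FPKM, and the MMK-1 libraries held 57.3, 59.5 and 65.0 FPKM. All MMK-1 libraries were lower, with replicate 3 nearest to the controls. The mean went from 118.7 ± 2.61 to 60.6 ± 3.93 FPKM (SD, n = 3 each), 51.1% of control, and Alpi fell by 0.96 on the log2(FPKM + 1) scale (SE 0.0512, adjusted p = 6.0e-07, limma). Its fold was just short of 2, and without MMK-1 replicate 3 Alpi fell by 1.01, which makes 3 members lower at a fold change of at least 2 in place of 2.

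Akp3 encodes a second intestinal alkaline phosphatase, known in the mouse as the duodenal form. It lies at chr1:87124954-87128728 on the plus strand, its transcript Akp3-201 also has 11 exons, and its start site is 23348 bp from that of Alpi, pointing away from it. The control libraries held 2.37, 2.11 and 2.45 FPKM, and the MMK-1 libraries held 12.8, 13.1 and 14.0 FPKM. The order was the opposite of that of Alpi, with every MMK-1 library above every control. The fragments behind these values were 226, 202 and 234 (control) and 1158, 1204 and 1327 (MMK-1). The mean went from 2.31 ± 0.179 to 13.3 ± 0.629 FPKM (SD, n = 3 each), a ratio of 5.76. Akp3 rose by 2.11 on the log2(FPKM + 1) scale (SE 0.0588, adjusted p = 1.6e-08, limma), and 13 of the 10551 genes tested rose more on that scale. The pseudocount of 1 compresses the change of so low a gene, and with limma-voom on the recovered fragments the log2 fold change was 2.53.

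The ratio of Alpi to Akp3 was 51.5, 55.6 and 47.7 in the control libraries and 4.48, 4.53 and 4.64 with MMK-1. The MMK-1 ratios were tightly grouped and far below the controls, a difference of -3.50 on the log2 scale (exact permutation test, p = 0.1, and 0.1 after adjustment over the 3 ratios, the smallest possible). The summed FPKM of the alkaline phosphatases went from 121 ± 2.66 to 74.0 ± 4.57 (SD, n = 3 each), 61.1% of control. Alpi made up 98.1% of the sum in the controls and 82.0% with MMK-1, and Akp3 made up 1.91% and 18.0%.

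Alpl encodes the tissue-nonspecific alkaline phosphatase of bone, liver and other tissues, and lies at chr4:137741731-137796384 on the minus strand. Its control libraries contained 0, 0 and 1 fragments, and its MMK-1 libraries contained 1, 5 and 3. The highest control library and the lowest MMK-1 library thus held 1 fragment each. Scaled by library totals, the summed fragments, 1 against 9, gave a ratio of 9.31 with an exact 95% interval of 1.29 to 408 that covers counting error only. With every gene above 0 in the test, the adjusted p of Alpl was 0.117 (limma). The Alpl fragments were near the limit that a count of 0 allows, 3 fragments, and the difference did not pass the test between libraries.

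Alpi and Akp3 share a cluster on chromosome 1 with Alppl2, a further alkaline phosphatase gene that is not a member. The 3 genes span 42.0 kb. Fragments on Alppl2 numbered 1, 0 and 3 without and 22, 18 and 34 with MMK-1, a ratio of 19.1 with an exact 95% interval of 7.17 to 72.1 for counting error only. Its mean of 0.304 FPKM with MMK-1 was below the filter, so it was not tested across genes. Thus 1 gene of the cluster fell, and the other two had more fragments with MMK-1.

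The upstream sequences of Alpi and Akp3 are shown because these neighbours moved in opposite directions. They were taken and marked in the same way as those of the disaccharidases.
Alpi, chr1:87101607-87101856, minus strand: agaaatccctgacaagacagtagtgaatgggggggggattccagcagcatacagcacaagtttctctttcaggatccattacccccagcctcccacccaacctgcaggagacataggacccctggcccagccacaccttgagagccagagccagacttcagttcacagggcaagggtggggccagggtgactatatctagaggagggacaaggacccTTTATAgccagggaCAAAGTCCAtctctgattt
Akp3, chr1:87124704-87124953, plus strand: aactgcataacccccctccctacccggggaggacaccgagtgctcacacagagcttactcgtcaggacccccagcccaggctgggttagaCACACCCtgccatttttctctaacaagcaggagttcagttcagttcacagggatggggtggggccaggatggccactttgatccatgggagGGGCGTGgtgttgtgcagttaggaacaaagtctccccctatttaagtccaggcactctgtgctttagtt
Alpi held the HNF4 word 19 bases before the start and, in reverse orientation, a TATA box match 33 bases before the start that overlaps a CDX match. Akp3 held none of these and had 2 KLF matches, which began 160 and 69 bases before the start. The 4 kinds of motif named here were found in 0.384%, 12.4%, 51.2% and 13.8% of all windows in that order (HNF4, TATA box, CDX, KLF).

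Because Alpi and Akp3 are close copies, fragments could in principle be assigned to the wrong gene, and the sequences were compared. In GENCODE vM21 their coding sequences were identical at 81.8% of 1650 aligned bases, with a longest identical run of 68 bases. A stretch near the start of the coding sequence shows how often they differ, with capitals at the 12 differing bases of 60.
Alpi, coding bases 31 to 90: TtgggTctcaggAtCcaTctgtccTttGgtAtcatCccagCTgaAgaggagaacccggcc
Akp3, coding bases 28 to 87: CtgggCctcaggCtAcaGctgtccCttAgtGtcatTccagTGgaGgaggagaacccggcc
Of all windows of 50 bases in the Akp3-201 transcript, 2.15% also occurred in another gene, in each case Alpi, and the share for Alpi-201 was 2.40%. The share was 0 for Sis-202 and Lct-201, 0.388% for Mgam-202 and 1.55% for Treh-201. These shares cover the named transcripts only. The FPKM values imply a length of 2550 bases for Akp3, against 1680 in Akp3-201, so part of its counted sequence was not compared. For Mgam the implied length was 12062 bases against 6488 in Mgam-202. Sis and Mgam were identical at 66.6% of 5339 aligned coding bases, with a longest identical run of 15 bases. How the authors' counting treated fragments that fit more than 1 gene is not given in the sources used here.

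**Figure D4:**
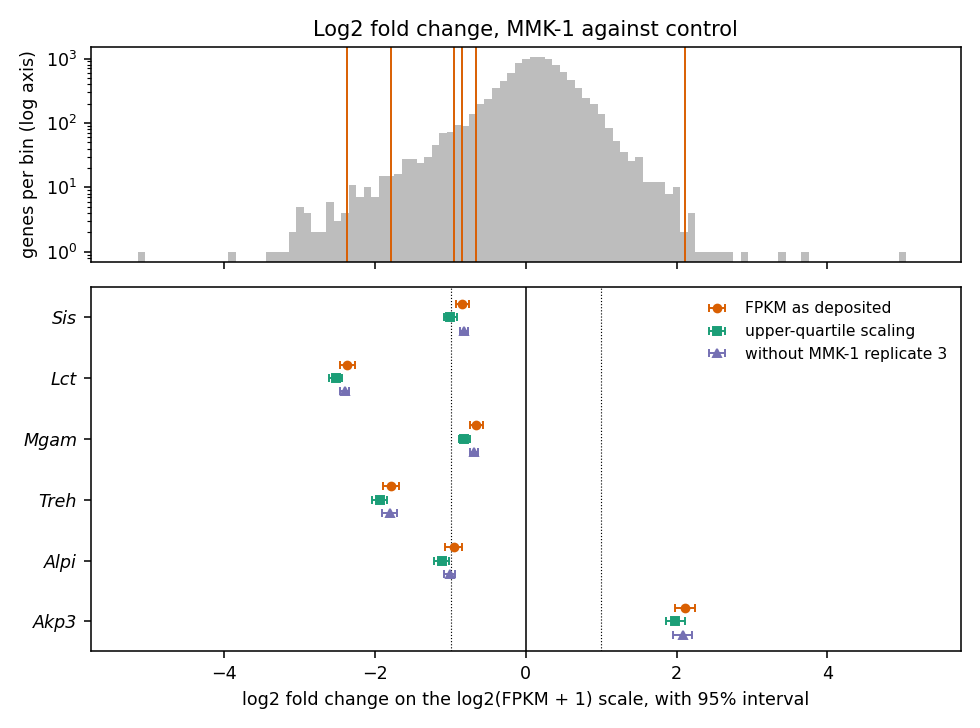
Upper panel, histogram of the log2 fold changes (MMK-1 against control) of all 10551 tested genes on a log count axis, with orange lines at the 6 tested members. Lower panel, fold change and 95% interval of each member for FPKM as deposited, after upper-quartile scaling and without MMK-1 replicate 3, with dotted lines at a fold change of 2. Every member stays on its side of 0 in the 3 fits, and Sis and Alpi lie near the dotted line at -1.

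The order of levels in the control libraries was Sis, Mgam, Lct, Alpi, Treh, Akp3 and Alpl from high to low, and no neighbours in that order overlapped between their libraries. With MMK-1 the order was Sis, Mgam, Alpi, Lct, Treh, Akp3 and Alpl, so Alpi and Lct exchanged places, again with no overlap between neighbours. In the controls Sis exceeded Mgam by a factor of 8.33, and Treh exceeded Akp3 by a factor of 33.7. With MMK-1 the latter factor was 1.64. The lengths that the FPKM values imply were close to those of the main transcripts for Sis (5953 bases) and Alpi (2337 bases), but for Mgam the implied length was 12062 bases against 6488 in Mgam-202, and for Akp3 it was 2550 against 1680. The levels of Mgam and Akp3 relative to the other members depend on this choice, and so, through the pseudocount, do their fold changes on the log2(FPKM + 1) scale.

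Relative to the shift of all genes, upper-quartile scaling gave larger falls and a smaller rise. The log2 fold changes were then -1.01 for Sis, -2.52 for Lct, -0.82 for Mgam, -1.94 for Treh, -1.12 for Alpi and 1.98 for Akp3. All 6 calls and directions stayed as they were. Without MMK-1 replicate 3, the library that stood apart, the log2 fold changes on the deposited scale were -0.82 for Sis, -2.41 for Lct, -0.69 for Mgam, -1.81 for Treh, -1.01 for Alpi and 2.08 for Akp3, again with all 6 past the threshold for adjusted p. At a fold change of at least 2, 4 members were lower under upper-quartile scaling in place of 2, because Sis and Alpi crossed the threshold.

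The falls of the disaccharidases and of Alpi came with lower markers of the enterocyte as a class. As a background, 24.7% of all tested genes were lower and 48.5% higher. All 7 listed enterocyte markers fell (median log2 fold change -1.21), none was at 0, and their summed level was 5518 to 5566 FPKM in the control libraries and 2014 to 2185 FPKM with MMK-1. Anpep, a peptidase of the brush border, fell by 2.84, and Apoa1, a lipoprotein component, fell by 2.62, both more than any member. Apoa4, another apolipoprotein, fell by 0.29, less than any falling member. All 5 stem cell markers rose (summed level 44.3 to 44.8 FPKM in the controls and 306 to 320 FPKM with MMK-1), as did all 5 Paneth cell markers (389 to 430 and 1266 to 1387 FPKM). The part of these shifts in the levels of the members was not tested.

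Of the other 14 tested hydrolases of the brush border, all fell, with a median log2 fold change of -1.76 against 0.13 for all genes. The share of all tested genes that were lower was 24.7%. The peptidases Ace and Mep1b had the lowest log2 fold changes, -3.002 and -2.897, and Enpp3 and Naaladl1 had the smallest falls, with -0.73 and -1.10. Sis, Mgam and Alpi therefore fell by less than the median of these hydrolases, Treh by about as much and Lct by more. Another 3 of the 17 listed genes did not reach the filter and were not tested. Nt5e had 4, 9 and 5 fragments in the controls and 24, 27 and 18 with MMK-1, Enpp7 had 90, 68 and 58 and then 4, 3 and 3, and Tmprss15 had 0 in every library. Of the 13 proteins of microvillus structure, 12 fell and Espn did not pass the test, with a median of -0.59 (all 13 fell after upper-quartile scaling, with Espn at -0.18). Myo1a, the motor that links the microvillus core to the membrane, fell by 2.02, and Tmigd1 fell by 1.62.

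Relatives of the disaccharidases outside the brush border changed in both directions. Of 4 tested relatives by glycoside hydrolase family, Ganc fell by 0.67, Myorg rose by 0.48 and the other two were not called (1 higher and 3 lower after upper-quartile scaling). Of 13 lysosomal glycosidases, 4 fell and 3 rose, with a median of -0.0031 (8 and 2 after upper-quartile scaling). For comparison, 24.7% of all tested genes were lower and 48.5% higher, with a median of 0.13. Hexa, which encodes a subunit of beta-hexosaminidase, fell by 0.36. Gla, the lysosomal alpha-galactosidase, rose by 0.59 and Gusb, the beta-glucuronidase, rose by 0.36.

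The products of the disaccharidases are taken up by sugar transporters, and 8 of 11 tested genes of monosaccharide transport and fructose use fell, while 2 rose (8 and 1 after upper-quartile scaling). Slc5a4b and Slc2a7 fell most, with log2 fold changes of -2.87 and -2.16. Slc5a1, the sodium-coupled glucose carrier of the brush border, had 467 ± 3.48 FPKM in the controls and 344 ± 12.5 FPKM with MMK-1 (SD, n = 3 each) and fell by 0.44. Slc2a1, a glucose carrier of many cell types, rose by 1.06, and Slc2a5, the fructose carrier, rose by 0.24, a call that was lost under upper-quartile scaling. The median of the 11 was -0.61, against 0.13 for all genes, of which 24.7% were lower and 48.5% higher.

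Around the alkaline phosphatases, 3 of 8 tested genes of phosphate and vitamin B6 handling fell and 2 rose (6 and 2 after upper-quartile scaling), with a median of -0.11. Over all tested genes 24.7% were lower and 48.5% higher, with a median of 0.13. Slc34a2, a sodium phosphate carrier, fell by 0.96, and Pdxk, the pyridoxal kinase, fell by 0.68. Slc20a1, another phosphate carrier, rose by 0.67, and Pdxp, the pyridoxal phosphatase, rose by 0.66. Of the 5 genes of the transamidase that attaches the membrane anchor of Alpi, Akp3 and Treh, Pigs fell by 0.16, Gpaa1 and Pigu rose by 0.37 and 0.22, and 2 were not called, with a median of 0.043 (2 lower and 1 higher after upper-quartile scaling, where Pigu lost its call).

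Factors that act on enterocyte promoters were counted in the same way. Of 18 tested transcription factors, 6 fell and 5 rose, where 24.7% of all tested genes were lower and 48.5% higher, with a median of 0.041 against 0.13 for all genes (8 and 4 after upper-quartile scaling). Creb3l3 and Thra, a thyroid hormone receptor, fell, with log2 fold changes of -0.64 and -0.44. Foxa2 and Foxa1 rose by 1.01 and 0.81. Cdx2, whose words are frequent in the Sis sequence, had 75.5 ± 1.25 FPKM in the controls and 93.5 ± 4.24 FPKM with MMK-1 (SD, n = 3 each), and Cdx1 had 86.9 ± 2.50 and 108.3 ± 6.40 FPKM. Both rose, by 0.30 and 0.31, and by 0.15 and 0.16 after upper-quartile scaling. Hnf4a was not called, with a log2 fold change of 0.068 (adjusted p = 0.188, limma), but after upper-quartile scaling its direction turned and it was called lower (-0.090, adjusted p = 0.044, limma). Cdx2, Cdx1, Hnf4a and Slc5a1 were picked after their values were seen.

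Lct and Akp3 are both known for their regional and developmental patterns, and lists for these were counted. Of 5 tested ileal genes, all fell (median -1.58, where 24.7% of all genes were lower), with Cubn at -2.31 and Fabp6 at -1.66. Slc10a2 fell least, by 0.35. Fgf15, below the filter, had 3, 0 and 1 fragments in the controls and 6, 3 and 2 with MMK-1. The enterocyte markers fell too (median -1.21), and a difference in region was not tested. All 4 tested genes of the proximal small intestine rose (median 0.40, against 0.13 for all genes, of which 48.5% were higher), with Cybrd1, a ferric reductase of the duodenum, at 3.36 and Onecut2 at 0.60, while Fabp1 and Gata4 rose by 0.17 and 0.20 and lost their calls after upper-quartile scaling. Of 6 tested genes of the suckling period, which share Cubn with the ileal list, 2 fell (Cubn and Amn, at -2.31 and -1.42) and 3 rose, with Fcgrt at 0.58 and Ass1 at 0.23 (3 lower and 1 higher after upper-quartile scaling, where Ass1 lost its call). The median of the suckling list was 0.12, near that of all genes.

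**Figure D5:**
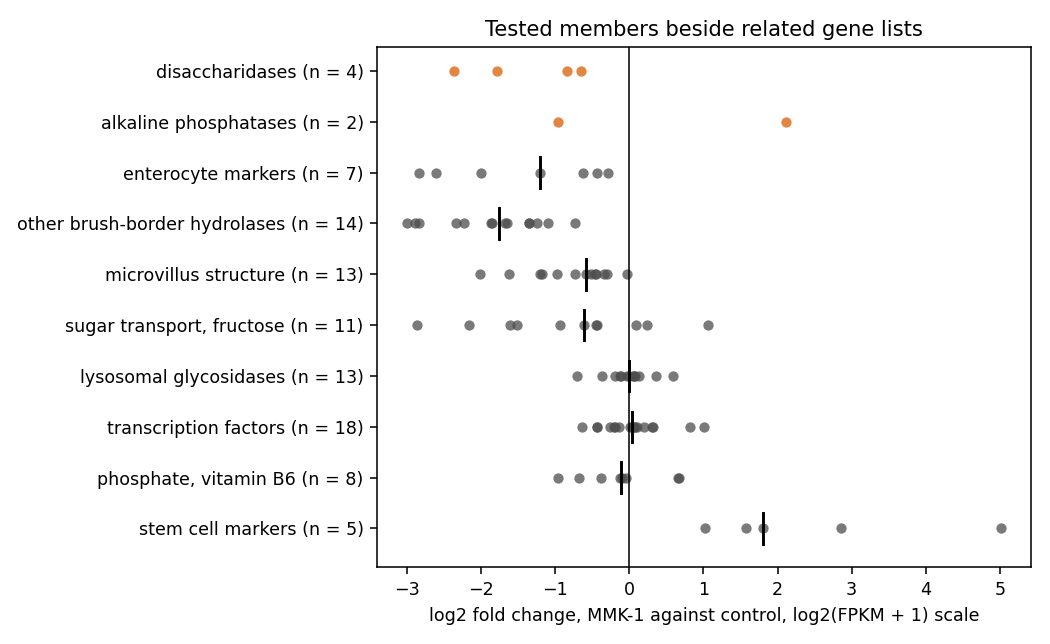
Log2 fold change (MMK-1 against control, log2(FPKM + 1) scale) of each tested member in orange and of each tested gene of 8 related lists in grey, with a black bar at the median of each list. The other brush-border hydrolases all lie below 0 with a median of -1.76, the lysosomal glycosidases and the transcription factors centre on 0, and Akp3 stands at 2.11.

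The genes with the pattern most like that of each member were found by the smallest distance between mean-centred log2(FPKM + 1) values over the 6 libraries. For Lct the nearest were Cyp2c29 and Ggt1, at distances of 0.0608 and 0.0881, and Ggt1 is itself a hydrolase of the brush border. For Treh they were Gstm2, Cndp2 and Akr1c13 (0.0715, 0.0960 and 0.0971), and for Alpi they were Hsd17b11, Gpat3 and Ces2e (0.0426, 0.0521 and 0.0597). For Mgam they were Ifnar2, Hsd17b8 and Trim14 (0.0321, 0.0357 and 0.0366). For Sis they were Nlrp1b, Phactr2 and Ddah1 (0.0525, 0.0715 and 0.0759), of which the first and second had control means of 1.84 and 1.90 FPKM and are pulled toward smaller changes by the pseudocount. For Akp3 they were Clca3b, Rcor2 and Ctrb1 (0.106, 0.145 and 0.181). Clca3b went from 22.7 to 105.4 FPKM on average, Rcor2 from 2.93 to 14.8 and Ctrb1 from 8.80 to 38.4. That the genes named for a member share its direction follows from how they were chosen and is no separate result.

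The goblet cell markers (5 of 6 rose and Muc2 fell, with 2 higher and 1 lower after upper-quartile scaling) and the enteroendocrine markers (3 of 4 tested rose, 2 after upper-quartile scaling) changed less than those of stem and Paneth cells, with medians of 0.25 and 0.52. The median of all tested genes was 0.13, and 48.5% of them were higher. None of the 4 tuft cell markers reached the filter, and of the leukocyte markers only Cd68 did, which fell by 0.96. The leukocyte markers found in the table summed to 2.95 to 3.67 FPKM in the controls and 0.920 to 1.78 FPKM with MMK-1. Most of this was Cd68, with means of 3.17 FPKM in the controls and 1.15 FPKM with MMK-1. Ptprc, Cd3e, Tyrobp and S100a8 had at most 3 fragments in any library.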

How the data were processed

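RNA-seq of 6 organoid libraries (3 control, 3 MMK-1) was deposited by the authors as a table of FPKM values for 21397 genes. The submitters' processing notes name the build mm10, HISAT2, HTSeq, R 3.2.0 and DESeq2 without roles. Strandedness and the handling of multiply placed reads are not given in the sources used here.

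The FPKM values were whole fragments times 1 factor per library and gene, and fragments were recovered for 100% of genes within 0.03 of a whole number (recovery was tested on simulated data). All genes that averaged 1 FPKM or more were tested by limma 3.58.1 in R 4.3.3 (trend, no block) on log2(FPKM + 1), with Benjamini-Hochberg adjustment over 10551 genes and the study's threshold of fold change 2 and p of 0.05 beside it. In libraries drawn from the real means, limma-trend was tested on simulated data. Libraries of a group were compared by a chi-square of fragments over genes with at least 50 fragments in a pair. Permutation tests were exact and two-sided. The limit of a count of 0 was set at 3 fragments. Intervals of fragment ratios are exact and cover counting error only.

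Every member was named, with the 2 largest falls and rises of each list and the 3 nearest genes of each member. A few of these genes and 1 planned motif are not reported here. The members and lists were chosen with earlier results of these data known. Coordinates and promoters are from RefSeq (GRCm38.p6), transcripts from GENCODE vM21, aligned with Biopython 1.88 after the data were seen. All 7 members matched RefSeq. The planned comparison of protein sequences was not made. Alternatives were upper-quartile scaling, other filters and pseudocounts, limma-voom, no trend, a replicate block and leaving out each library.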

Additional observations from a re-analysis of the deposited data

How the results depend on the processing

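Each of the 6 tested members kept its direction and its call under upper-quartile scaling, both other filters, both other pseudocounts, limma-voom on recovered fragments, limma without a trend, the replicate block and each fit that left out 1 library. Upper-quartile scaling made 4 members lower at a fold change of at least 2 in place of 2. Leaving out 1 library gave 2 to 3 such members. Genes higher at a fold change of at least 2 numbered 358 as deposited, 223 after upper-quartile scaling, 676 with a pseudocount of 0.1 and 727 with limma-voom, and a smaller pseudocount compresses low genes less. Leaving out 1 library gave 329 to 426 of them.

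Same-numbered control and MMK-1 libraries did not deviate together (correlations of 0.025, -0.040 and 0.028), so the numbers were not taken as pairs. With a replicate block 5024 genes were higher and 2543 lower, and all 6 members kept their calls. The ratio of Alpl to Alpi was planned and not computed, since 2 control libraries of Alpl were at 0. The Alpl ratio rests on few fragments, and 3 libraries a group limit every permutation test to 0.1.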
